A study of Mus musculus with 16 samples.

Results

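Nr4a1, Nr4a2, Nr4a3, Egr1, Egr2, Egr3, Sik1, Ier2, Ppargc1a and Bdnf are textbook early targets of cAMP signalling, and they were examined here for binding of the EWSR1::ATF1 fusion. The genes were chosen by name, with earlier results of these data known. Every peak was taken within 3 kb of one of their transcription start sites (TSSs), in their bodies or within 50 kb of a TSS. They are 10 of the 21938 protein-coding genes annotated on chromosomes 1 to 19, X and Y. The tumours came from mice of mixed 129/SvJ and C57Bl/6 background that carried a human type 1 EWSR1::ATF1 cDNA with a V5 tag in the Rosa26 locus. A floxed stop cassette ahead of it was removed by TATCre protein injected into a hindlimb at 4 weeks of age, so all samples shared the same genotype and no untransformed tissue served as a control. ChIP-seq was performed on bulk tumour with antibodies against V5 (4 samples), RNA polymerase II (RNAPOL2, 4 samples) and H3K27ac, a histone mark of active promoters and enhancers (4 samples), and 4 samples were input chromatin. Each antibody was represented by 1 peak list, so there were no values per tumour and no error between replicates, and a site occupied in few cells could not be told apart from a site occupied weakly in many.

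Signals that raise cAMP activate protein kinase A, which phosphorylates CREB and its relatives CREM and ATF1 at cAMP response elements (CREs). Genes with such elements are transcribed within minutes, without new protein synthesis, and several of them also answer to growth factors through serum response factor at CArG boxes. EWSR1::ATF1, the fusion that drives clear cell sarcoma, keeps the DNA-binding domain of ATF1 but lacks the site at which the kinase activates it. The full CRE is the palindrome TGACGTCA, and its core element is TGACG, which reads CGTCA on the other strand.

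The promoters of the genes with the strongest V5 peaks held these elements in different arrangements. The stretches below are from mm10, lie wholly within a V5 peak, overlap no annotated exon, are written 5′ to 3′ on the strand of the gene and end at the base before the named start site. Capitals mark TGACG on either strand and TGACGTCA. Distances count from the start site to the nearest base of the element. Upstream of Nr4a1-201 (chr15:101266596-101266845, plus strand) 4 core elements ended 229, 209, 65 and 36 bp from the start site. Upstream of Nr4a2-203 (chr2:57124004-57124253, minus strand) 4 core elements lay 196, 140, 119 and 107 bp away. Nr4a3-201 (chr4:48044903-48045152, plus strand) had 3 core elements 75, 57 and 49 bp away, which were 116 to 142 bp from the middle of the V5 peak. These 3 stretches contained no TGACGTCA. Sik1-201 (chr17:31855805-31856054, minus strand) had TGACGTCA 232 bp away and core elements 187, 109 and 98 bp away. The second start site region of Nr4a2 (Nr4a2-201, chr2:57115039-57115148, minus strand) had TGACGTCA 40 bp away, and Ier2-201 (chr8:84662853-84662952, minus strand) had it 38 bp away.
Nr4a1: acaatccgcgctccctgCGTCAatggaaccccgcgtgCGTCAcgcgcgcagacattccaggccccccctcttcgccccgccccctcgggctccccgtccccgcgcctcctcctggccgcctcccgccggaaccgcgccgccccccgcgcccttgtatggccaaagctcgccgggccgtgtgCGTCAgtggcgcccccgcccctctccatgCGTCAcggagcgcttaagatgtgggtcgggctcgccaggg
Nr4a2: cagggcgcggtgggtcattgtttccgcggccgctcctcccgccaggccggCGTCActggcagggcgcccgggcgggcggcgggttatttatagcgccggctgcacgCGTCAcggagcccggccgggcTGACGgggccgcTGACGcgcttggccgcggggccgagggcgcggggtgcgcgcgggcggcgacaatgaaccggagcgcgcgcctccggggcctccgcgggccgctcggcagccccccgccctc
Nr4a2 internal start site: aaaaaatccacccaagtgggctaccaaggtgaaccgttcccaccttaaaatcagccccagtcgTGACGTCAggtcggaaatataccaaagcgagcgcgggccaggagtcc
Nr4a3: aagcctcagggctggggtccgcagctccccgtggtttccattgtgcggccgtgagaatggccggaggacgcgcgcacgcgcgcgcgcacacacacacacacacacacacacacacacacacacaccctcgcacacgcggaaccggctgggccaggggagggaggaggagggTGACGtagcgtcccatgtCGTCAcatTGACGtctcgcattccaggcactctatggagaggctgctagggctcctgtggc
Sik1: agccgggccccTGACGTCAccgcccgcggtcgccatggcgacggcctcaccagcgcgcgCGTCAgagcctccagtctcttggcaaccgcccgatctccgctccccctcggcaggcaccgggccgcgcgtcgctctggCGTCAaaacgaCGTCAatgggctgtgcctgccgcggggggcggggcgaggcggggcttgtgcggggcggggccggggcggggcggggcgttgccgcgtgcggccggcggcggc
Ier2: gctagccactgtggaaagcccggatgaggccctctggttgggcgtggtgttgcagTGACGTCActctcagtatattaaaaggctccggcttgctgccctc

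The promoter of Ppargc1a carried a weaker V5 peak and that of Egr2 carried none, and both are shown for contrast. The Ppargc1a stretch (Ppargc1a-202, chr5:51567727-51567936, minus strand, inside its V5 peak) had 1 core element 44 bp from the start site and TGATGTCA, a member of the wider TGANNTCA family, 193 bp away. The Egr2 stretch (Egr2-201, chr10:67537689-67537868, plus strand) had core elements 107 and 51 bp away and a CArG box 63 bp away, also in capitals, and lay in no V5 peak. Core elements were thus present in a promoter with a V5 peak and in one without.
Ppargc1a: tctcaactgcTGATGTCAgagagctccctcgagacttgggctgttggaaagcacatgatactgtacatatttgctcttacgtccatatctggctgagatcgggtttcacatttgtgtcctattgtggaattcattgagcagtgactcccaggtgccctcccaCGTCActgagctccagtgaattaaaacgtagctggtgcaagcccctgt
Egr2: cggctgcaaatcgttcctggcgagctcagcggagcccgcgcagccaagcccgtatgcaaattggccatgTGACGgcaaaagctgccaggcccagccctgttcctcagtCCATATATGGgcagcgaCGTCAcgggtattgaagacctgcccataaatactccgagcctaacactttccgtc

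Elements also lay in V5 peaks away from the promoters. The stretches below run from 150 bp before to 50 bp after the middle of the peak upstream of Nr4a1 (chr15:101246340-101246540, plus strand), 60 bp to each side of the middle of a peak downstream of Nr4a1 (chr15:101279685-101279805, plus strand), and from 150 bp before to 50 bp after the middle of a peak upstream of Sik1 (chr17:31894770-31894970, minus strand). In the first, 2 core elements are in capitals. In the second, capitals mark a TGACGTCA, 2 further core elements and TGAGTCA, the AP1 motif bound by FOS and JUN. In the third, capitals mark 2 runs of TGA or TCA units spaced by at most 5 bp, one of 12 units and the other of 5 units, and a single TGACG between them is left in lower case. Such runs are a type of repeat that the study searched for in V5 peaks.
Nr4a1 upstream peak: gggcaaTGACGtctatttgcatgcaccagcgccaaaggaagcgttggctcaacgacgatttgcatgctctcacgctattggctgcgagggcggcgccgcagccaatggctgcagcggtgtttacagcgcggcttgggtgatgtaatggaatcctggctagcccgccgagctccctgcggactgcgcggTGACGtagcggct
Nr4a1 downstream peak: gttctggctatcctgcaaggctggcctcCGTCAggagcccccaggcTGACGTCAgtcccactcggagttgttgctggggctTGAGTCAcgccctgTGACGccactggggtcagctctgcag
Sik1 upstream peak: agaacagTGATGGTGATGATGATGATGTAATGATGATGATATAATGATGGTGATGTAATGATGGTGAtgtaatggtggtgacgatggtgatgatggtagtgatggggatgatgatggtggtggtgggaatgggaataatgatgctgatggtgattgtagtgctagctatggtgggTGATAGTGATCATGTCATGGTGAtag

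A V5 peak lay within 3 kb of a TSS in 7 of the 10 genes (Nr4a1, Nr4a2, Nr4a3, Egr1, Sik1, Ier2 and Ppargc1a), against 16.6% of all coding genes. RNAPOL2 promoter peaks were found in 9 genes (53.5% of coding genes) and H3K27ac promoter peaks in 10 (58.6%), and 6 genes had promoter peaks in all 3 lists (15.9%). At least 2 V5 promoter peaks were found in 5 genes, against 1.79% of coding genes. A V5 promoter peak among the upper 10% of its list by score was found in 4 genes (Nr4a1, Nr4a2, Nr4a3 and Sik1), against 1.89% of coding genes. The score is a whole number deposited for each peak on a scale that is not stated, so it was compared only within a list, in which rank 1 is the strongest peak.

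Over whole lists the median score was 230 for the 10665 V5 peaks, 246 for the 20375 RNAPOL2 peaks and 212 for the 27552 H3K27ac peaks. The V5 list holds fewer peaks than the largest set of binding sites described in the study, which also describes smaller sets, so ranks, shares of genes and the lack of a peak refer to the list analysed here. Among genes with a V5 promoter peak, the median of the highest score was 1209 for the 7 genes and 196 for the 3640 coding genes that had one. The same medians were 1134 (9 genes) and 912 (11738 genes) for RNAPOL2, and 597.5 (10 genes) and 863 (12846 genes) for H3K27ac. These medians leave out genes without a promoter peak. V5 scores were above the median of coding genes at Nr4a1, Nr4a2, Nr4a3, Sik1, Ier2 and Ppargc1a and below it at Egr1. RNAPOL2 scores were above it at Nr4a1, Nr4a2, Nr4a3, Sik1 and Ier2, and H3K27ac scores at Nr4a2, Nr4a3, Sik1 and Ier2. With 1 list per antibody these are descriptions without a test. The plot of promoter ranks shows how far the genes spread within each list.

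**Figure D1:**
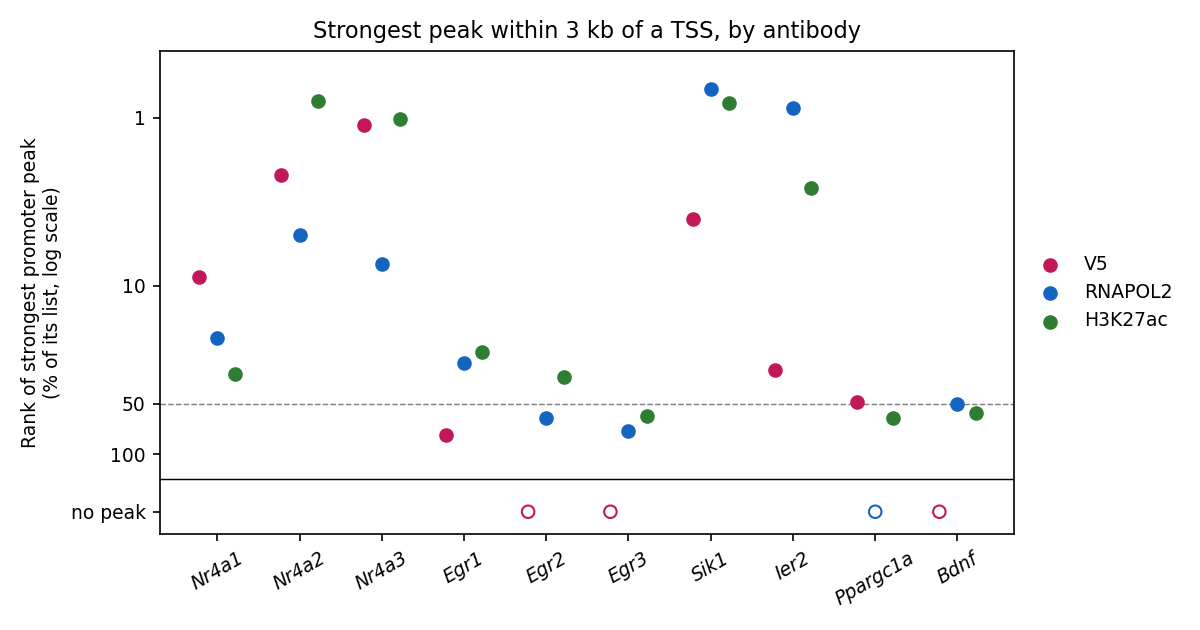
Rank of the strongest peak within 3 kb of a TSS for each of the 10 genes, as a percentage of its list on an inverted log axis, for V5, RNAPOL2 and H3K27ac; the dashed line is the middle of a list and open circles mark genes with no promoter peak. V5 ranks ran from the upper 1.11% at Nr4a3 to 76.7% at Egr1, and Egr2, Egr3 and Bdnf had no V5 promoter peak.

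The NR4A genes encode orphan nuclear receptors, transcription factors without a known natural ligand whose activity follows from how much of the protein is made. All 3 had V5 promoter peaks, and the highest V5 score of the 10 genes was at Nr4a3. Nr4a3 lies on chromosome 4 at 48045153 to 48086447 on the plus strand. Its stronger V5 peak covered the TSS (48044221 to 48045700) with a score of 4016 and rank 118 of 10665. A second V5 peak 1303 bp upstream scored 895 and had rank 1408. Both overlapped RNAPOL2 and the single H3K27ac peak of the locus, which was 7330 bp wide and scored 4430 (rank 280 of 27552). No other V5 or H3K27ac peak lay within 50 kb of a TSS of Nr4a3. An RNAPOL2 peak of 39950 bp, the 11th widest of 20375, began before the TSS and ran through the gene with a score of 1884. A further RNAPOL2 peak extended 2513 bp past the annotated end of the gene, and together they covered 99.1% of its 41295 bp. The strongest RNAPOL2 promoter peak, 1213 bp upstream, scored 2210 (rank 1501).

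By the ranks of their highest promoter scores in the 3 lists, the coding genes nearest to Nr4a3 were Adam1a, Gm42878 and Mapkapk5, each at a distance of 173 ranks. They shared the same promoter peaks, with scores of 2297 for V5, 2302 for RNAPOL2 and 4700 for H3K27ac, so they count as 1 locus. The likeness is between 3 scores per gene and describes these lists only.

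Nr4a2 lies on chromosome 2 at 57106830 to 57124003 on the minus strand and is known for its role in dopamine neurons. It had 3 V5 promoter peaks, all in the upper 10% of the list and all overlapping RNAPOL2 and H3K27ac. The peak over the most upstream TSS (57123451 to 57124580) scored 2095 and had rank 409. The peak over 2 internal TSSs, with the TGACGTCA shown above, scored 1632 and had rank 618. Between them, in an intron 753 bp upstream of the Nr4a2-201 start site, lay the strongest of the 3, with a score of 3018, rank 233 and a width of 2280 bp. RNAPOL2 scored 2696 at the upstream TSS, 2507 over these 2 internal TSSs and 69 over the most downstream TSS, and RNAPOL2 peaks covered 58.0% of the gene and reached 1619 bp past its end. The RNAPOL2 peaks beyond the most downstream TSS, most of them in or across the gene, scored between 47 and 80. H3K27ac scored 4679 at the upstream TSS, the highest value of the 10 genes, and 2755 over the 2 internal TSSs. The only distal V5 peak, 14558 bp upstream within the annotated gene BB557941, scored 196 and overlapped neither RNAPOL2 nor H3K27ac.

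Nr4a1, on chromosome 15 at 101254269 to 101274795 on the plus strand, had the most V5 peaks of the 10 genes, with 7 within 50 kb. The peak at the Nr4a1-201 start site scored 1209 (rank 942) and the peak at the most upstream TSS scored 692 (rank 1884). The strongest of the 7 was distal, 7169 bp upstream of the gene, with a score of 3194 and rank 206, and RNAPOL2 (score 306) and H3K27ac (score 559) lay over it. An intronic peak with a score of 200 was the only V5 peak among the 10 genes that lay in a gene body outside a promoter window (1 gene, against 7.1% of coding genes). Downstream of the gene, the peak with TGACGTCA scored 351, a peak within 3 kb of the TSS of Atg101 scored 496, and the farthest scored 177. These 3 and the intronic peak overlapped H3K27ac peaks with scores from 65 to 215 and no RNAPOL2. RNAPOL2 scored 1134 at the Nr4a1-201 start site and covered 12.1% of the gene, the lowest share of the NR4A genes. H3K27ac scored 463 and 384 at its promoters. V5 at Nr4a1 was thus spread over many sites, several of them without RNAPOL2, whereas at Nr4a3 it was concentrated at the start site.

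Stitching H3K27ac peaks within 12 kb of each other placed Nr4a1 in a region of 54.45 kb with 11 H3K27ac peaks and 6 of the V5 peaks. The region also held the promoters of Atg101 and 6030408B16Rik, at which 4 of the 11 H3K27ac peaks lay, and its strongest H3K27ac peak was at Atg101 (2268). Of 2450 stitched regions with at least 3 peaks, 76 (3.1%) held at least 6 V5 peaks. A TSS in a stitched region of at least 3 H3K27ac peaks was found for 3 of the 10 genes (Nr4a1, Sik1 and Egr1), against 13.9% of coding genes. The Sik1 region spanned 25.18 kb with 6 H3K27ac peaks and 1 V5 peak, and the Egr1 region 21.25 kb with 4 H3K27ac peaks and 2 V5 peaks. Nr4a2 and Nr4a3 had high H3K27ac scores in compact regions of 11.54 and 7.33 kb.

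**Figure D2:**
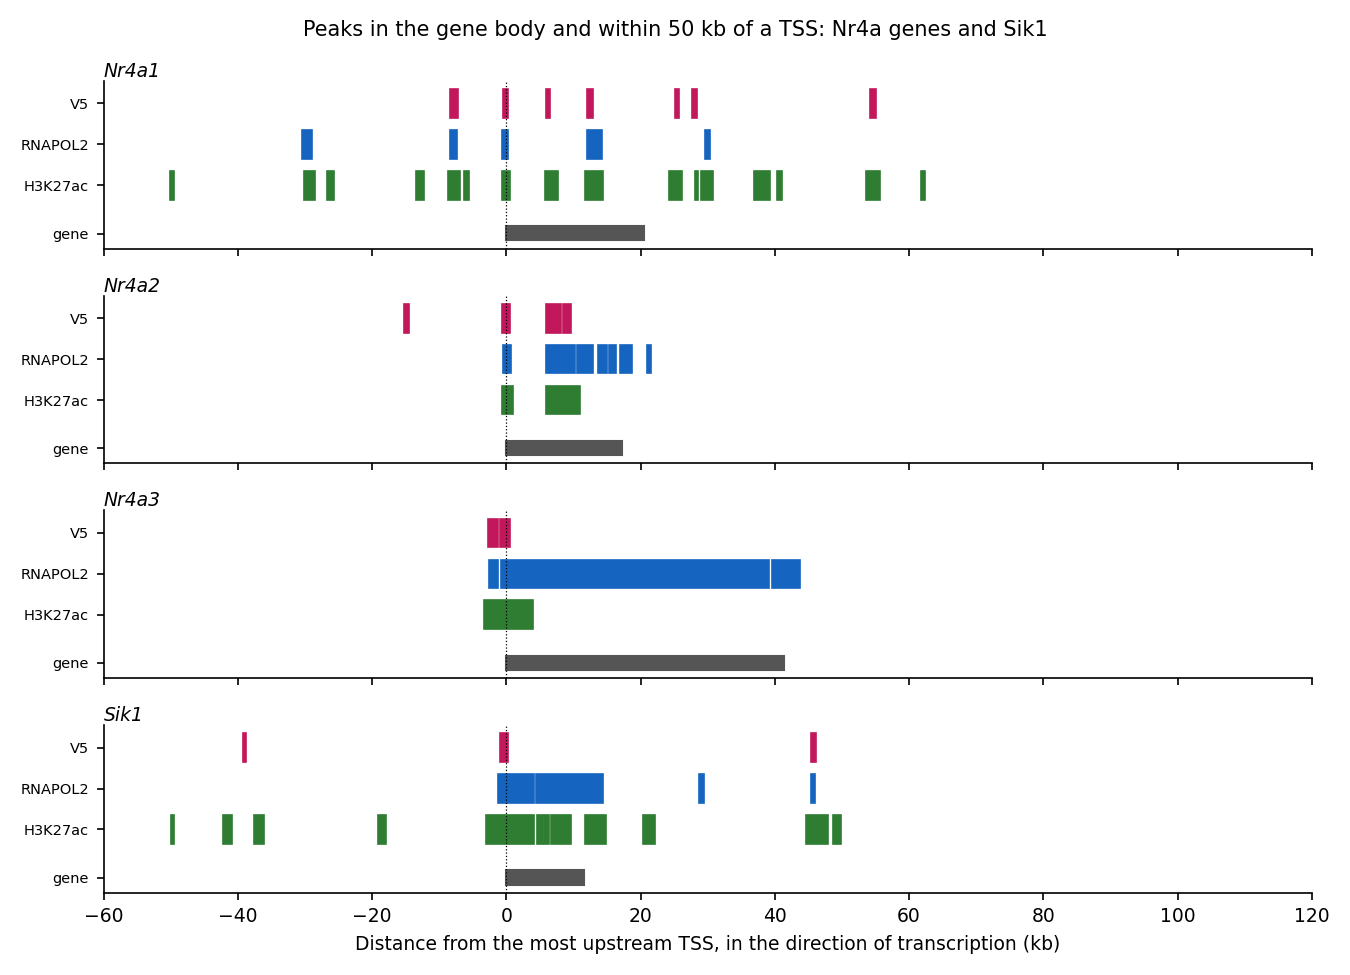
Peaks in the body and within 50 kb of a TSS of Nr4a1, Nr4a2, Nr4a3 and Sik1, drawn to scale against the distance in kb from the most upstream TSS in the direction of transcription; each coloured block is 1 peak and the grey bar is the annotated gene. Nr4a1 has 7 scattered V5 peaks, Nr4a3 has 2 at its start and an RNAPOL2 peak of 39950 bp, and Sik1 has 1 V5 promoter peak and 2 distal ones.

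Sik1 encodes salt-inducible kinase 1, a kinase induced by cAMP that phosphorylates the CRTC coactivators and so dampens CREB activity. The gene lies on chromosome 17 at 31844250 to 31855804 on the minus strand. Its single V5 promoter peak, over the TSS (31855491 to 31856780), scored 2059 and had rank 424. The RNAPOL2 promoter peak scored 5699 (rank 138 of 20375), the highest RNAPOL2 score of the 10 genes, and the H3K27ac peak scored 4651 (rank 225). A second RNAPOL2 peak of 9880 bp, the 203rd widest, scored 1070 and extended 2789 bp past the end of the gene, so that RNAPOL2 covered 97.5% of the gene. A distal V5 peak 41125 bp downstream of the nearest TSS also held TGACGTCA, scored 593 (rank 2194) and overlapped H3K27ac (321) and RNAPOL2 (63). The other distal V5 peak, 38767 bp upstream, held the runs of TGA or TCA units shown above, scored 230 and overlapped neither mark.

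The paralogues Sik2 and Sik3 also had V5 promoter peaks, with scores of 376 and 1000, below the 2059 of Sik1. Their RNAPOL2 promoter scores were 1760 and 851, and RNAPOL2 peaks covered 0.527% and 1.29% of the genes. Such shares depend on gene length, for which the kinases were not matched. Sik3 had the highest H3K27ac score of the 3 kinases (5036, against 4651 at Sik1 and 1284 at Sik2).

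The EGR genes encode zinc finger transcription factors that are induced by growth factors as well as by cAMP, and V5 was weak or not found at them. Egr1, on chromosome 18 at 34859823 to 34864984 on the plus strand, had 2 V5 promoter peaks with scores of 113 (rank 8179) and 103 (rank 8478), both in the lower part of the list. The second, over the downstream TSS, held 5 CArG boxes and 3 core elements. RNAPOL2 at Egr1 scored 803 (rank 5871) and covered 49.7% of the gene, and H3K27ac scored 732. Egr2, on chromosome 10, and Egr3, on chromosome 14, had no V5 promoter peak. Egr2 had RNAPOL2 and H3K27ac at the Egr2-201 start site with scores of 127 and 423. The nearest V5 peak to Egr2 scored 66, lay 10198 bp downstream and covered the promoter of Ado, a neighbouring gene. Egr3 had RNAPOL2 with a score of 71 and H3K27ac with a score of 141, both upstream of the TSS and neither over the gene, and its nearest V5 peak lay 127232 bp away with a score of 67. Egr4, the fourth member of the family, had no promoter peak in any of the 3 lists. RNAPOL2 and H3K27ac promoter scores both ran in the order Egr1, Egr2, Egr3. The V5 scores of Egr1 were below those of every V5 promoter peak of the NR4A genes, whereas its H3K27ac score of 732 was above the 463 of Nr4a1.

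Ier2 encodes a short immediate early nuclear protein. It lies on chromosome 8 at 84661331 to 84662852 on the minus strand. The V5 peak over its TSS, with TGACGTCA, scored 376 (rank 3353) and also lay within 3 kb of a TSS of Gm26664, and a second V5 peak in the gene, with 1 TGAGTCA, scored 175 (rank 6374). RNAPOL2 scored 5227 (rank 178), the second highest value of the 10 genes, covered 100% of the 1522 bp and reached 1480 bp past the end. H3K27ac scored 3259 and also covered the whole gene. Ier2 therefore combined a moderate V5 rank with RNAPOL2 and H3K27ac ranks in the upper 0.874% and 2.64% of their lists. The related genes Ier5 and Ier5l had RNAPOL2 scores of 5656 and 4387 and H3K27ac scores of 2447 and 1922 with no V5 promoter peak.

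Ppargc1a encodes PGC-1alpha, a coactivator that drives mitochondrial biogenesis and fasting metabolism and is a CREB target in liver and muscle. It lies on chromosome 5 at 51454250 to 51567726 on the minus strand. The V5 peak at its upstream TSS scored 230 (rank 5196) and was the only V5 promoter peak of the 10 genes that overlapped neither RNAPOL2 nor H3K27ac. No RNAPOL2 peak lay within 50 kb of any of its TSSs. A single H3K27ac peak with a score of 137 (rank 16861) lay 121 bp downstream of an internal TSS. Its relatives Ppargc1b and Pprc1 showed the opposite arrangement, with V5 scores of 67 and 43 beside RNAPOL2 scores of 1166 and 1678 and H3K27ac scores of 1317 and 2648.

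Bdnf encodes brain-derived neurotrophic factor, a secreted ligand whose neuronal promoters are a classic model of CREB regulation. It lies on chromosome 2 at 109674700 to 109727007 on the plus strand and has 9 annotated TSSs. No V5 peak lay within 50 kb of any of them, and the nearest was 70608 bp away with a score of 113. One internal TSS had RNAPOL2 with a score of 243 and H3K27ac with a score of 159, and a second H3K27ac peak scored 49. The related genes Ntf3 and Ntf5 had no promoter peak in any of the 3 lists.

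**Figure D3:**
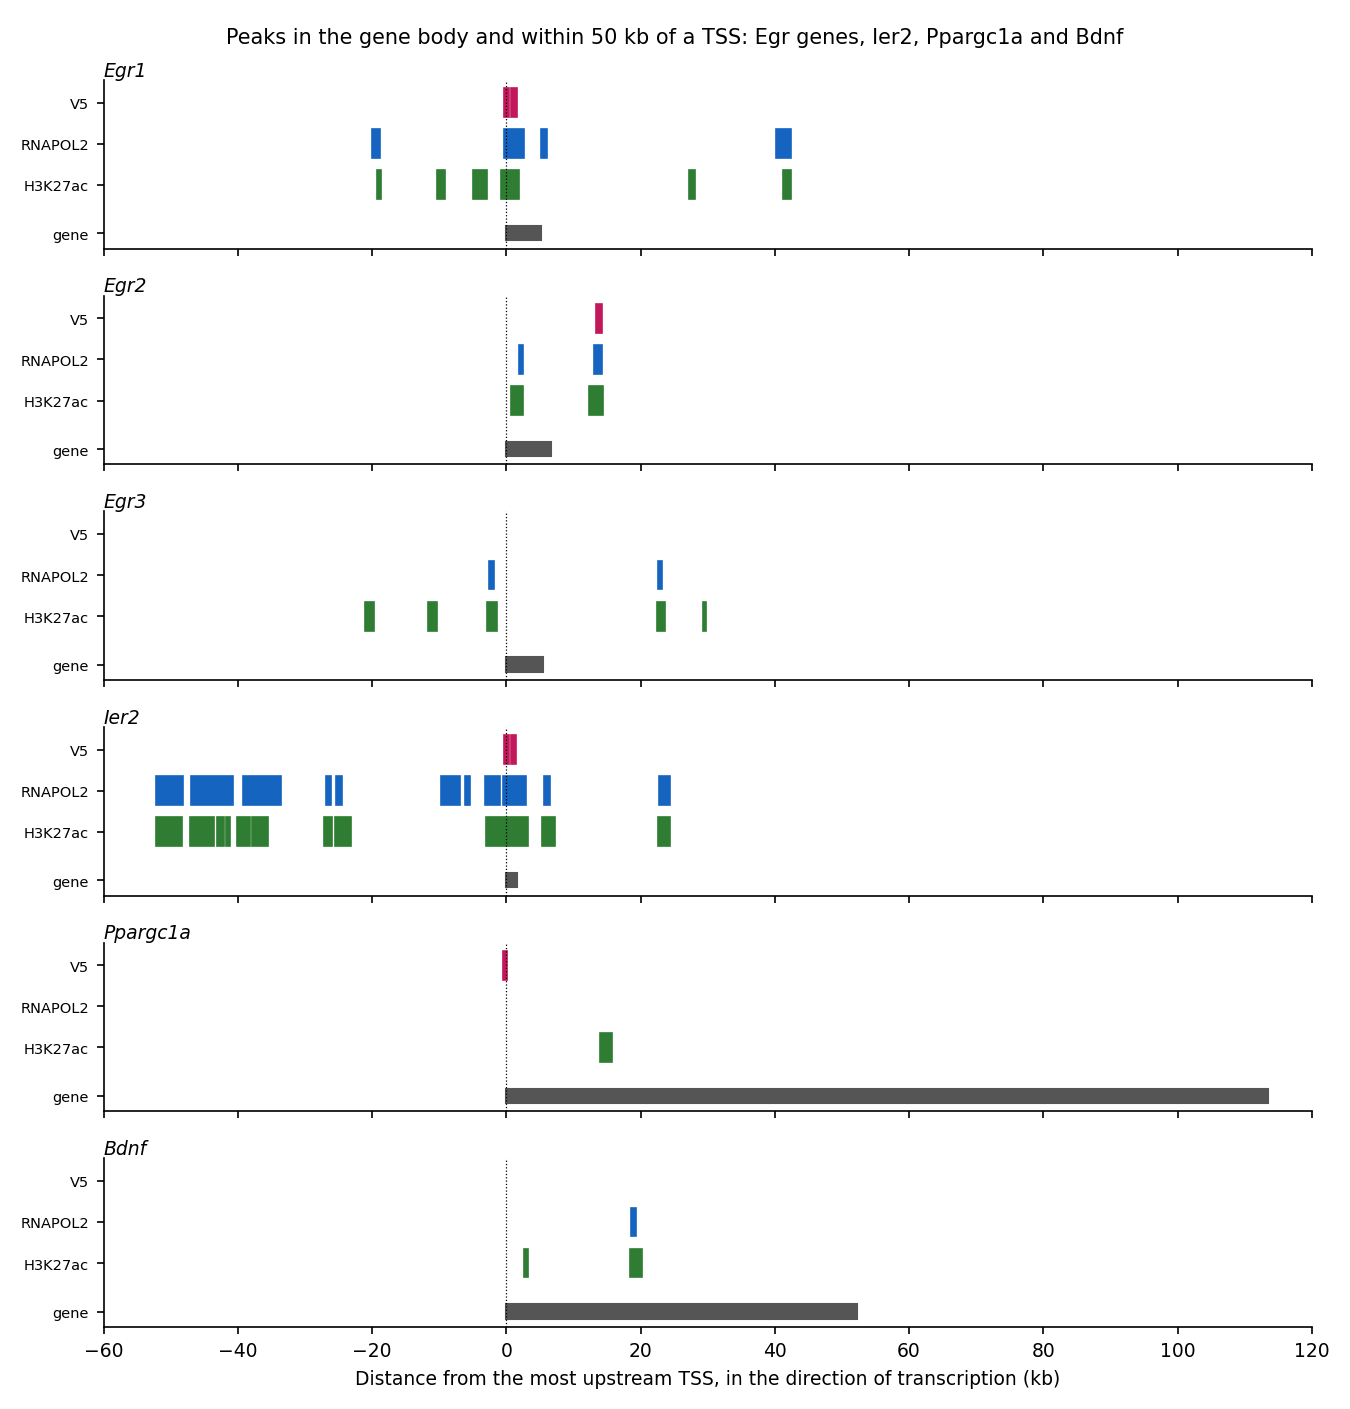
Peaks in the body and within 50 kb of a TSS of Egr1, Egr2, Egr3, Ier2, Ppargc1a and Bdnf, drawn to scale as distance in kb from the most upstream TSS in the direction of transcription; each coloured block is 1 peak and the grey bar is the annotated gene. Egr3 and Bdnf have no V5 peak in view, the V5 peak right of Egr2 covers the Ado promoter, and Ppargc1a has V5 at its start with no RNAPOL2; many blocks left of Ier2 lie at promoters of other genes.

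Within 50 kb of a TSS, 8 genes had a V5 peak (41.3% of coding genes), 9 had an RNAPOL2 peak (69.9%) and 10 had an H3K27ac peak (75.1%). The 22 V5 peaks in these windows gave a mean of 2.2 per gene, against 0.765 over all coding genes. Of these, 13 were promoter peaks, of which 10 lay over a TSS, and 9 were distal. Promoter peaks were shared with H3K27ac in 12 cases and with RNAPOL2 in 12, and the Ppargc1a peak was the exception for both. Of the 9 distal peaks, 7 were shared with H3K27ac and 3 with RNAPOL2, and 6 of the 9 lay around Nr4a1 or over the promoter of Ado. For a comparison with the whole V5 list, the 22 peaks were divided by their distance to the TSSs of all annotated genes, which moved the peaks at Atg101 and Ado to the promoter class. H3K27ac then lay over 14 of 15 promoter peaks (91.1% of the list) and 5 of 7 other peaks (61.3%). RNAPOL2 lay over 13 of 15 (76.3%) and 2 of 7 (18.5%). No difference from the list is read from these small counts.

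RNAPOL2 peaks covered much of the gene in several of the 10. They covered at least 50% of the gene in Nr4a2, Nr4a3, Sik1 and Ier2, which are 4 of 10, against 3.45% of coding genes. The trait was shared by related early genes, since it was found in 19 of 41 other early or cAMP-responsive genes, Nfil3 and Fos among them, and in 2 of 9 paralogues, Ier5 and Ier5l. Short genes can be covered by a promoter peak alone. Among genes of at least 10 kb with an RNAPOL2 promoter peak, 3 of 5 (Nr4a2, Nr4a3 and Sik1) were covered to at least 50%, against 1.84% of 8738 coding genes. Part of the 58.0% covered in Nr4a2 lay under weak RNAPOL2 peaks with scores from 47 to 69. In the genes with an RNAPOL2 promoter peak the median share covered was 49.7% (9 genes), and over coding genes it was 3.43% (11738 genes). An RNAPOL2 peak that overlapped the gene extended past its annotated end in the same 4 genes, by 1480 to 2789 bp, against 9.58% of coding genes and 75.3% of the 756 that were covered to at least 50%. At Egr1 a separate RNAPOL2 peak with a score of 54 lay just past the end of the gene, from 34865011 to 34865910.

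**Figure D4:**
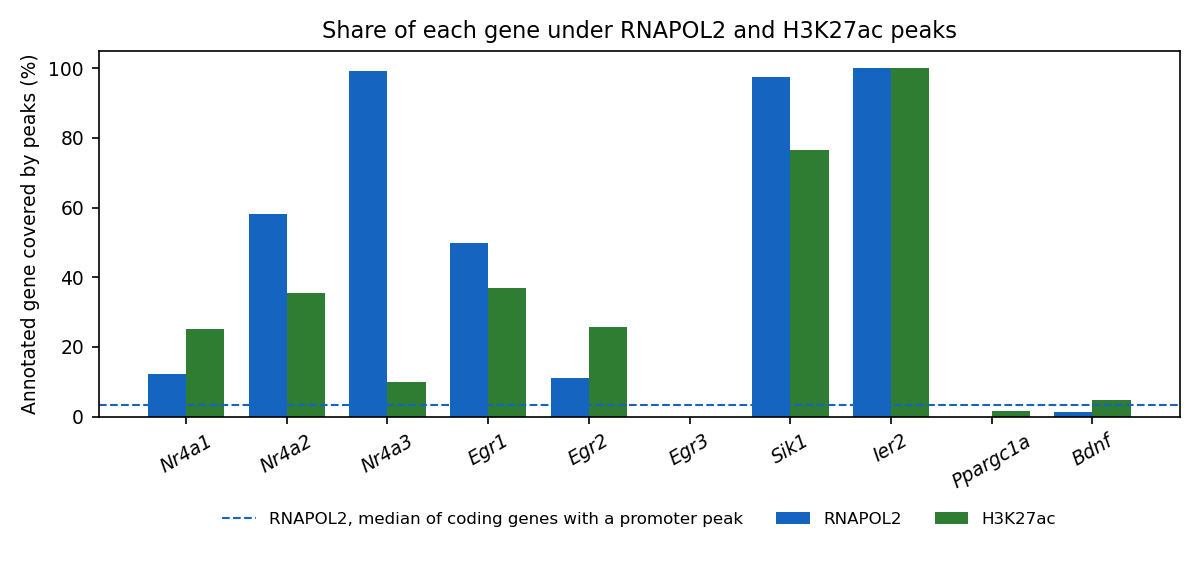
Percentage of each annotated gene covered by RNAPOL2 and by H3K27ac peaks, with the median RNAPOL2 share of the 11738 coding genes with an RNAPOL2 promoter peak as a dashed line. RNAPOL2 covered 99.1% of Nr4a3 while H3K27ac covered 9.78%, both covered 100% of Ier2, and Egr3 and Ppargc1a had no RNAPOL2 over the gene.

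The letters of the 13 V5 promoter peaks were compared with those of all 4330 V5 peaks within 3 kb of a TSS of any annotated gene. TGACGTCA was found in 3 of the 13 (12.9% of the 4330), at Nr4a2, Sik1 and Ier2, and within the central 200 bp in 2 (8.55%). TGACG on either strand was found in all 13 (77.9%), and in the central 200 bp in 9 (48.6%). No V5 promoter peak of Nr4a3 or Egr1 held it in the central 200 bp. At least 3 copies of TGACG outside TGACGTCA were found in 7 (15.8%), and at least 2 such copies in the central 200 bp in 3 (10.8%). The median density was 2.82 copies per kb in the 13 peaks and 1.75 in all V5 promoter peaks, and the median widths were 890 and 710 bp. Wider peaks hold more copies by length alone, and the 13 peaks come from 7 genes and are not independent.

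Other motifs were also counted in the V5 promoter peaks, and no difference from the list is read from counts this small. TGAGTCA was found in 1 of the 13 peaks (16.4%), at Ier2, and another TGANNTCA in 1 (26.9%), at Ppargc1a. A CArG box, the element of serum response factor, was found in 1 (3.74%), the second Egr1 peak. A run of more than 4 TGA or TCA units was found in 0 (5.54%), and among the 22 V5 peaks such runs were found only in the distal peak upstream of Sik1. The same letters were counted in the RefSeq windows from 250 bp before to 50 bp after each start site on GRCm38, of which 6 of the 10 genes had at least 1. Of all 32851 windows, 1.79% held TGACGTCA, 20.8% held TGACG, 1.03% held at least 3 copies of TGACG and 1.63% held a CArG box. The 6 genes had 16 such windows. None of these held TGACGTCA, but Sik1 and Ier2, which hold it upstream of their start sites as shown above, were not among the 6 genes. A CArG box was found in 4 of the 16 windows, all of them at Egr2. The windows of Nr4a1, Nr4a2 and Nr4a3 each held 4 copies of TGACG and that of Ppargc1a held 1. Of 5 Egr2 windows, which overlap in part, 3 held 2 copies and the others 0, and of 7 Bdnf windows 1 held 1 copy and the others 0.

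**Figure D5:**
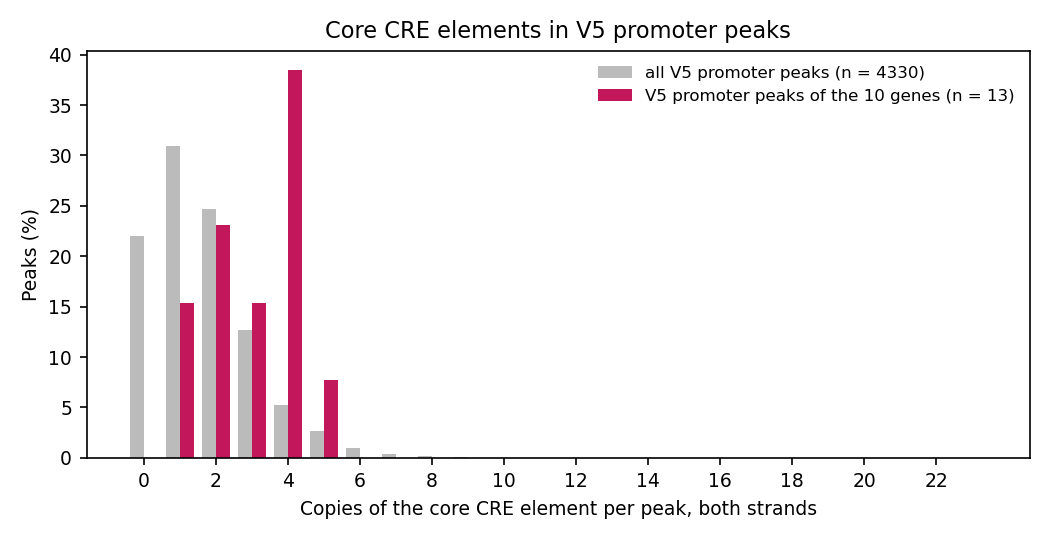
Percentage of V5 promoter peaks by the number of copies of the core CRE element TGACG on both strands, in which a TGACGTCA counts as 2 copies, for all 4330 peaks in grey and the 13 peaks of the 10 genes in colour. Of the 13 peaks 5 had 4 copies, a number found in 5.24% of all V5 promoter peaks, and none was without a copy.

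The wider group of early and cAMP-responsive genes gave a point of reference. Of 41 such genes, 29 had V5 promoter peaks, 31 RNAPOL2, 32 H3K27ac and 29 all 3, and 5 had a V5 promoter peak in the upper 10% of the list. These 5 were Crem (19716), Nfil3 (2767), Pde4d (1346), Homer1 (1259) and Fos (1149), so Nr4a2 and Nr4a3 ranked above all of them but Crem. Of 9 paralogues examined, 4 had V5 promoter peaks, 6 RNAPOL2, 6 H3K27ac and 4 all 3, and 0 had one in the upper 10%. Among markers of clear cell sarcoma and its melanocytic programme, V5 was found at 1 of 7 promoters (Dct, 218), RNAPOL2 at 2 (Pmel and Mitf) and H3K27ac at 3, and Sox10, Mlana and Tyr had none. Promoters of 5 skeletal muscle genes had no peak in any list. Markers of leukocytes, endothelium and fibroblasts had no V5 peak, RNAPOL2 at 3 of 10 and H3K27ac at 10 of 10, with H3K27ac scores from 49 to 1554. The part of other cells of the tumour in the H3K27ac and RNAPOL2 peaks at the 10 genes was not tested.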

How the data were processed

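ChIP-seq was performed on 16 tumour samples, 4 each for V5, RNAPOL2, H3K27ac and input, grouped by their labels. The submitters' processing notes and the study's methods give alignment to mm10 with BWA (0.7.10-r789), removal of duplicates, and peaks called over input with MACS2 (2.2.6), with the broad option for H3K27ac. Peaks in denylisted regions were discarded. The values used are the scores in the 3 peak lists deposited by the authors. The scale of the score and the way replicates were combined into the peak lists are not stated, and the methods name 1 sample more for V5 and RNAPOL2 than the labels, so the samples behind each list are uncertain. The methods name an approximate depth common to all libraries, but the lists do not give the depth each sample reached, and 0 columns of other samples were left out.

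TSSs came from GENCODE vM21 on GRCm38, the assembly that mm10 names. Promoter peaks shared at least 1 bp with the 3 kb around a TSS, and distal peaks lay within 50 kb. Ranks were taken by score within a list. H3K27ac peaks within 12 kb were stitched. Motifs were searched on both strands: the full CRE TGACGTCA, its core TGACG, the AP1 motif TGAGTCA, any other sequence of the form TGANNTCA, CArG boxes, and runs of more than 4 TGA or TCA units with gaps of at most 5 bp. Promoter windows came from RefSeq on GRCm38. The 10 genes were named, with 9 paralogues (a further one is not reported here), 42 early or cAMP-responsive genes (41 found as coding genes, the 5 with the highest V5 score named) and the 3 genes nearest in rank to the gene with the highest V5 score. These genes, lists and rules were chosen with earlier results of these data known. With 1 list per antibody no test was run and 0 p-values were computed. Overlaps, stitching and motif searches were tested on simulated data. Python 3.11.15, numpy 2.4.6, pandas 2.3.3, pysam 0.24.0 and matplotlib 3.10.9 were used.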

Additional observations from a re-analysis of the deposited data

How the results depend on the processing

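Part of the counts were recomputed. Counts of genes with at least 2 V5 promoter peaks, with one in the upper 10% or with RNAPOL2 over at least 50% were not. Promoter windows were set to 1 and 5 kb, or to start sites of protein-coding transcripts alone. The middle base of a peak was used in place of any overlap, and the upper 50% of each list in place of all peaks. Distances were set to 25 and 100 kb, and stitching to 5 and 20 kb. H3K27ac was required over at least 50% of a V5 peak, and motifs were sought in the central 200 bp. Of the recomputed values 32 stayed within 1.5 times the reported count and 2 did not. That bound is wide for counts of at most 10 genes. In the upper 50% of each list, RNAPOL2 promoter peaks were found in 6 genes in place of 9. H3K27ac promoter peaks were found in 7 in place of 10, V5 promoter peaks in 6 in place of 7, and all 3 in 5 in place of 6. The intronic V5 peak of Nr4a1 was lost in the upper 50% of the list (0 genes in place of 1), because its score of 200 was under the median. V5 peaks near the 10 genes numbered 35 within 100 kb in place of 22 within 50 kb, because the window was larger. The highest V5 promoter score of each of the 10 genes was the same with windows of 1 and 5 kb. No paired analysis was possible because each antibody has 1 list. The lists hold no depth, and the V5 list holds fewer peaks than the largest site set the study describes, so the lack of a V5 promoter peak at Egr2, Egr3 or Bdnf refers to this list alone.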
